A study of Homo sapiens with 12 samples.

Results

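Gene expression of 8 targets of the transcription factor NRF2 was followed over 12 arrays from head and neck cancer cell lines. The genes are GPX2, ALDH3A1, NQO1, TXNRD1, GCLC, GCLM, HMOX1 and TRIM16, and every probe set whose only listed gene symbol is one of these was used. They were chosen with earlier results on these same arrays known, in which log2 values of subline and parent had been compared. Which values decided the choice is not recorded. The rule on symbols gave 11 probe sets of the 19065 with 1 symbol, and 8 of the 11963 genes those stand for. NQO1 had 3 probe sets, GCLC had 2 and each of the others had 1. All 11 passed the limit for dim probe sets, a log2 value of 4.52 exceeded on at least 2 arrays, and 10 of them lay above it on all 12 arrays. The exception was the GCLC probe set 202922_at, above it on 9.

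The samples were total RNA of 3 lines labelled HNC-Detroit, HNC-Fadu and HNC-OECM1, each as untreated parent cells and as an invasion subline, with 2 arrays in each of the 6 groups. A subline is the population kept after passage through Matrigel, a basement membrane extract, so that it is enriched for strongly invading cells. FaDu came from a hypopharyngeal and OECM1 from an oral squamous carcinoma, while the sources used here do not say which Detroit line was grown. The labels do not say how many rounds of passage were made, whether a subline is 1 clone, or whether duplicates came from separate cultures, so errors measure the spread between these arrays, which may be technical.

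NRF2, encoded by NFE2L2, is held low by KEAP1, which hands it to a ubiquitin ligase for degradation. Oxidants and electrophiles modify KEAP1, NRF2 then accumulates, pairs with a small MAF protein and binds antioxidant response elements near its target genes. The targets make and recycle glutathione and thioredoxin, reduce quinones and aldehydes, and break down heme. In squamous carcinomas of the head and neck the pathway is known for being switched on in a portion of tumours by mutation of NFE2L2, KEAP1 or CUL3.

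The antioxidant response element is the sequence through which NRF2 acts, so the RefSeq promoter windows of the members (GRCh38.p14, 250 bases before to 50 bases after a gene's start) were searched for its core. The letters searched were TGACNNNGC on both strands. The opening letters are shared with sites of AP-1 and CREB factors, so a match is not specific to NRF2. Windows were held for 6 of the 8 genes, namely GPX2, NQO1, GCLC, GCLM, TRIM16 and TXNRD1, which had 2 starts; ALDH3A1 and HMOX1 had none. The core was present in 4 of the 7 windows, against 13.3% of 35116 windows of that length, and so in 3 of the 6 genes. The genes were listed as NRF2 targets, so nothing is read from this share. The 250 upstream bases of 3 windows are shown, since these are the genes whose levels are set against each other below. Capitals mark the core, which in all 3 lies on the opposite strand and so reads as its reverse complement.
GPX2 (chr14:64942746-64942995, minus strand): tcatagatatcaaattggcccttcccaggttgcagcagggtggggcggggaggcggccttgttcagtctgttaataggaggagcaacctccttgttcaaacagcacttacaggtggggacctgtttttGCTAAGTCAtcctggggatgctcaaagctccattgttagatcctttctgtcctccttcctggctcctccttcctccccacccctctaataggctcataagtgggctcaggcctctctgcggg
GCLM (chr1:93909431-93909680, minus strand): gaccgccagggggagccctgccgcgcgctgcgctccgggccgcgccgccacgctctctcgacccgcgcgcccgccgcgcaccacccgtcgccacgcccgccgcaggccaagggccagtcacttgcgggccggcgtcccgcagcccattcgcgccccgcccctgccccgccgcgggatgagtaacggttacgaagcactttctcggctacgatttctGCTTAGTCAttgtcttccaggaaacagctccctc
TXNRD1, the downstream start (chr12:104286782-104287031, plus strand): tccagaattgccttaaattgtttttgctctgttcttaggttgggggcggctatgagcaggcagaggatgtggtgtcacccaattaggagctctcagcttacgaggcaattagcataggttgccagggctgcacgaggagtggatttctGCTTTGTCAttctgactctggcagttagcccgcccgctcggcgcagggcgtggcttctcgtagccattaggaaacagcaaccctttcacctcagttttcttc
Read on its own strand, the GPX2 site was TGACTTAGC, 122 bases before the start, the GCLM site TGACTAAGC, 34 bases before it, and the TXNRD1 site TGACAAAGC, 102 bases before it. The upstream TXNRD1 window held TGACTTCGC and TGACGGAGC. The windows of NQO1, GCLC and TRIM16 held no match, which says only that these letters are not in these bases.

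Some facts of the arrays touch every result. Array medians lay between 4.92 and 5.06. Over 13311 tested probe sets, which are not independent replicates, group means of the invasion subline labelled Detroit (the Detroit-labelled subline below) had r = 0.962 to the Fadu parent but r = 0.882 to its own labelled parent. Each Detroit comparison is therefore one of groups as labelled. Between duplicate arrays the root mean square difference was 0.890 (log2) in the Detroit-labelled subline, 0.746 in the OECM1 parent and 0.436 to 0.589 in the other groups. Of 9 measured epithelial and squamous markers, 8 or 9 lay above the dim limit on both arrays of every group, among them KRT18, SFN, EPCAM and CDH1, while KRT14 averaged 10.52 in the Detroit-labelled subline but 4.055 in the Detroit parent and 3.95 to 4.42 in OECM1. The leukocyte marker PTPRC averaged 3.52 to 3.73 and the endothelial marker CDH5 3.34 to 3.84 in all groups, below the limit. At most 2 of 6 leukocyte and 1 of 5 endothelial markers passed it on both arrays of a group. The summed signal of 8 fibroblast markers was 10.28 to 10.36 (log2) in the OECM1 subline and 7.46 to 9.15 elsewhere. VIM stood out among them, at 10.10 in the OECM1 subline and 7.29 in its parent against 4.86 to 5.22 elsewhere, and its part in the OECM1 values below was not tested. Of the others, THY1 was lowest in the OECM1 subline, at 4.23, and COL1A2 was high in the Detroit parent, at 6.92 against 4.60 to 4.73 elsewhere, which was not tested either. In bulk RNA, fewer cells expressing a gene and less RNA per cell cannot be told apart.

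**Figure D1:**
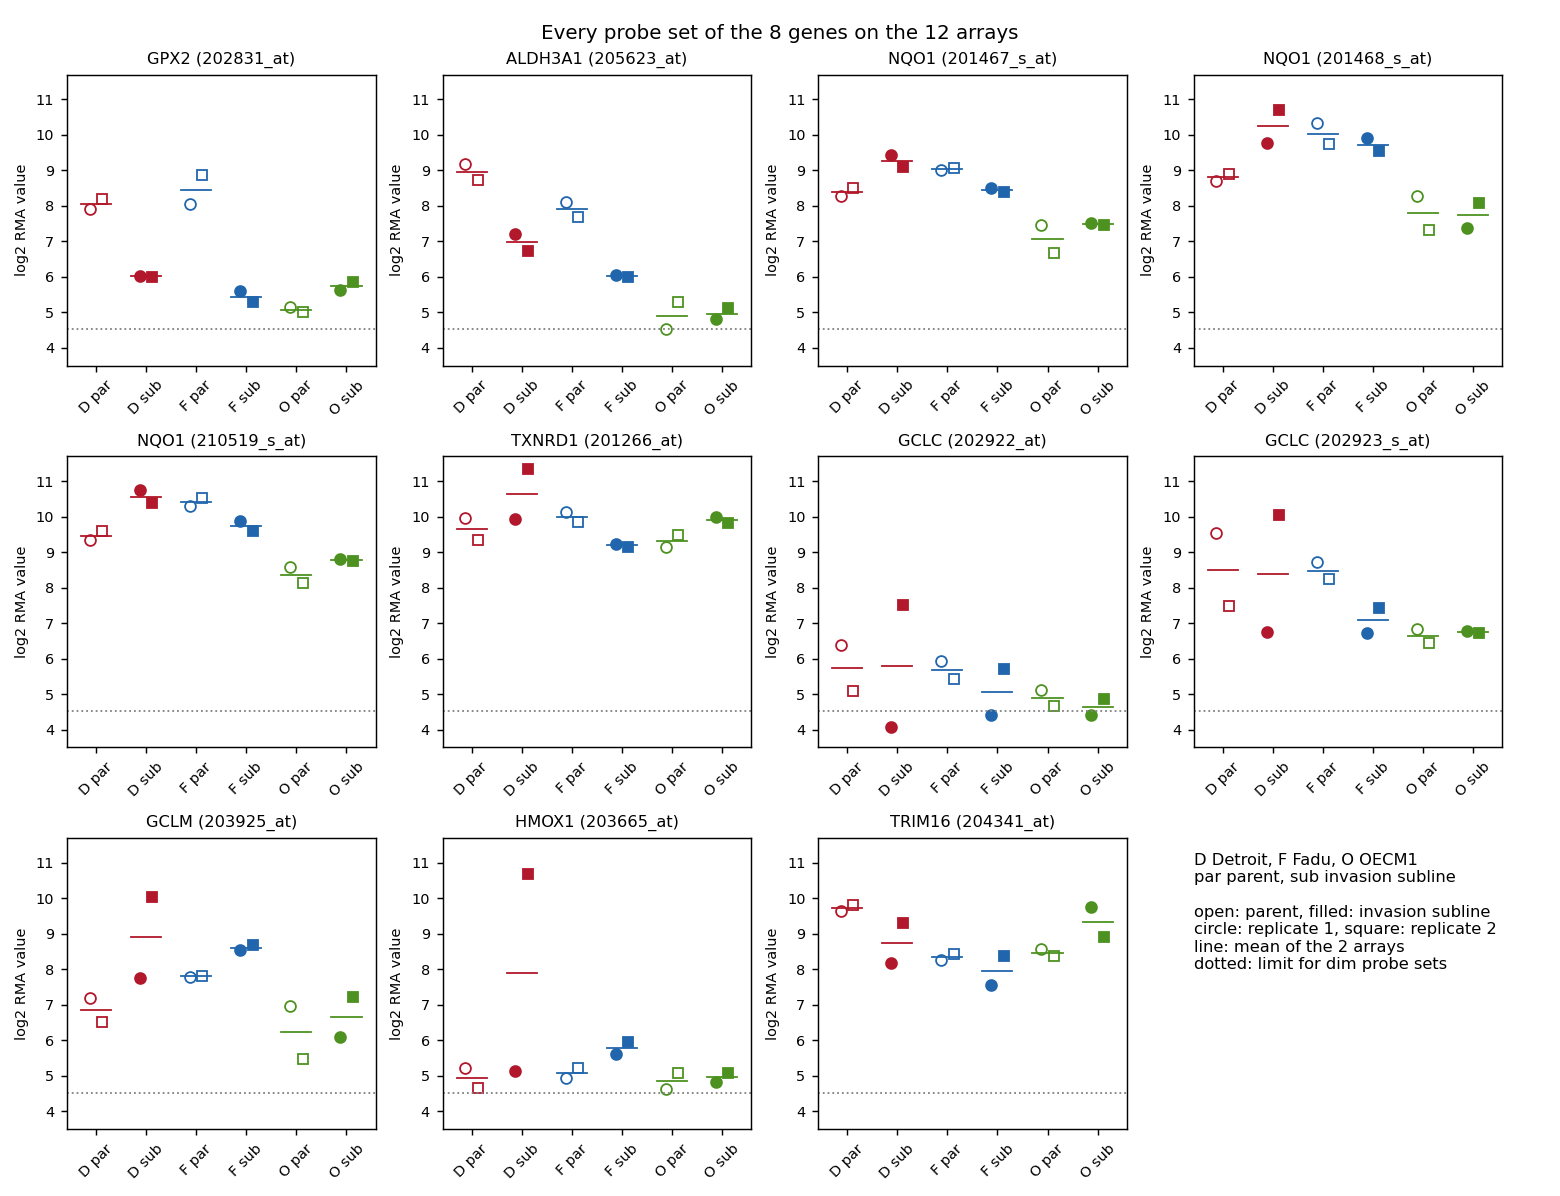
Log2 RMA value of each of the 11 probe sets (one panel each) in the 6 groups; open symbols are parents, filled symbols invasion sublines, circles replicate 1, squares replicate 2, lines the mean of 2 arrays and the dotted line the dim limit of 4.52. GPX2 and ALDH3A1 lie lower in the Detroit and Fadu sublines than in their parents, NQO1 lies lowest in OECM1, and HMOX1 is high on 1 array only, at 10.69.

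GPX2, a glutathione peroxidase of epithelia that uses glutathione to reduce hydroperoxides, was high in only 2 of the 6 groups. In the Fadu parent it read 8.05 and 8.86, and in the Detroit parent 7.92 and 8.19. It read 6.019 and 6.004 in the Detroit-labelled subline, 5.59 and 5.29 in the Fadu subline, 5.62 and 5.85 in the OECM1 subline and 5.15 and 5.01 in the OECM1 parent. The Fadu and Detroit parents overlapped, and the highest of the other 8 arrays was the 6.019 just given. Ordered by mean, the lower groups followed each other in steps of 0.28, 0.29 and 0.37, with arrays that did not overlap but steps about the size of the standard error (SE) of a difference, 0.321.

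ALDH3A1, a dehydrogenase of medium-chain and aromatic aldehydes abundant in squamous and corneal epithelium, was graded over the lines. The Detroit parent read 9.17 and 8.72, the Fadu parent 8.12 and 7.70, the Detroit-labelled subline 7.22 and 6.73 and the Fadu subline 6.045 and 6.005. OECM1 read 4.52 and 5.28 in the parent and 4.80 and 5.11 in the subline, near the dim limit. Apart from the OECM1 groups no neighbouring groups overlapped, with steps of 0.93 to 1.07 against an SE of 0.352.

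NQO1, which reduces quinones by 2 electrons and is a standard readout of NRF2 activity, gave the same picture of the lines in all 3 probe sets. On 210519_s_at the Detroit-labelled subline read 10.74 and 10.39, the Fadu parent 10.30 and 10.52, the Fadu subline 9.87 and 9.59 and the Detroit parent 9.33 and 9.58. The same probe set read 8.80 and 8.74 in the OECM1 subline and 8.59 and 8.14 in the OECM1 parent. Every OECM1 array lay below every other array on all 3 probe sets. Group means spanned 2.19 on 210519_s_at, 2.21 on 201467_s_at and 2.51 on 201468_s_at.

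TXNRD1, the reductase that keeps cytosolic thioredoxin in its active form, varied least between groups among the single-probe-set members, with means from 9.19 to 10.64. It read 11.33 in Detroit invasion subline replicate 2 but 9.95 in replicate 1, and 9.97 and 9.33 in the Detroit parent. The Fadu subline read 9.24 and 9.14 against 10.12 and 9.84 in its parent, and the OECM1 subline 10.00 and 9.82 against 9.15 and 9.47. No neighbouring groups in its order were apart.

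GCLC and GCLM encode the catalytic and modifier subunits of glutamate-cysteine ligase, the enzyme that limits glutathione synthesis. GCLC on 202923_s_at read 6.76 and 10.04 in the Detroit-labelled subline and 9.54 and 7.47 in the Detroit parent, so the duplicates of both Detroit groups were far apart. It read 6.73 and 7.43 in the Fadu subline, 8.71 and 8.24 in the Fadu parent and 6.44 to 6.84 over the 4 OECM1 arrays. The second GCLC probe set, 202922_at, was dim, at 4.07 to 7.51, and followed the first over the 12 arrays (r = 0.927). For GCLM the Detroit-labelled subline read 7.77 and 10.03, the Detroit parent 7.18 and 6.51, the Fadu subline 8.53 and 8.68 and the Fadu parent 7.80 and 7.82. The OECM1 arrays, at 5.47 to 7.21, held the lowest GCLM values and overlapped the Detroit parent. In the Fadu subline, GCLC on 202923_s_at thus lay below the parent and GCLM above it.

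HMOX1, the stress-induced heme oxygenase that splits heme into biliverdin, carbon monoxide and iron, was low on 11 arrays and high on 1. It read 10.69 in Detroit invasion subline replicate 2 and 5.12 in replicate 1. The other 10 arrays lay between 4.64 and 5.96, with the Fadu subline highest among them at 5.63 and 5.96. TRIM16, a tripartite motif protein linked to the handling of oxidised protein aggregates, read 9.63 and 9.80 in the Detroit parent, 9.75 and 8.91 in the OECM1 subline, 8.17 and 9.30 in the Detroit-labelled subline and 7.55 and 8.37 in the Fadu subline. Its parents in Fadu and OECM1 lay between 8.27 and 8.58. TRIM16 has a closely related gene, TRIM16L, whose signal its probe set may share.

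The comparison of the parents asked how far the lines differed before selection. Differences between parents were fitted with limma over all 13311 probe sets and adjusted by the Benjamini-Hochberg method at a threshold of 0.05. The 3 comparisons share parent samples, and the members were chosen with earlier results of these arrays known, so they are no independent evidence on the pathway. In OECM1, GPX2, ALDH3A1 and NQO1 were lower than in Fadu. GPX2 was 10.4-fold lower (log2 difference -3.38, SE 0.321, adjusted p = 0.000586), ALDH3A1 8.04-fold lower (-3.01, SE 0.352, adjusted p = 0.00208) and NQO1 3.94-fold to 4.74-fold lower on its 3 probe sets (adjusted p = 0.00605 to 0.0262). These made 5 of 11 probe sets called lower, where 1.16% of all probe sets were (2.52% in either direction). The arrays of 9 of the 11 lay apart, all lower, against 20.5% of all. GCLM had a log2 difference of -1.59 (SE 0.705, adjusted p = 0.347), GCLC -1.84 on 202923_s_at (SE 0.902, adjusted p = 0.407) and TXNRD1 -0.67 (SE 0.426, adjusted p = 0.574), without passing. HMOX1 and TRIM16 had -0.22 and 0.12. The median was -1.84 over the 11 probe sets and -0.03 over all tested. The GPX2 and ALDH3A1 calls held under all 23 alternatives, with adjusted p of at most 0.00772 and 0.0302. The count of 5 was 2 without Fadu parent replicate 1 or without replicate 2, and 3 without OECM1 parent replicate 2, since NQO1 probe sets then missed the threshold.

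GPX2 and ALDH3A1 were also higher in the Detroit parent than in the OECM1 parent, by 7.90-fold (log2 difference 2.98, SE 0.321, adjusted p = 0.000622) and 16.5-fold (4.04, SE 0.352, adjusted p = 0.000143). That was 2 of 11 probe sets called higher, against 1.33% of all (2.97% in either direction). The arrays of 7 of the 11 lay apart, all higher, against 21.2% of all. All 11 had a positive difference, with a median of 1.09 against 0.05 over all tested. NQO1 missed the threshold, at 1.02 to 1.34 (adjusted p = 0.0645 on 201467_s_at), as did TRIM16 at 1.25 (SE 0.451, adjusted p = 0.193). Among other limma fits that left no group with 1 array, 201467_s_at passed in some, with adjusted p of 0.0337 to 0.0459. These were without the 2 Detroit-labelled subline arrays, without the intensity trend and with quantile normalization. In most alternatives 201467_s_at did not pass. Between the Detroit and Fadu parents 0 of 11 were called by limma, where 2.22% of all probe sets were. An unadjusted p under 0.05 in that fit was found for 4 of the 11 and for 1929 of all 13311. There ALDH3A1 had a log2 difference of 1.04 (SE 0.352, adjusted p = 0.188), TRIM16 1.37 (SE 0.451, adjusted p = 0.177) and NQO1 -0.64 to -1.23, while GPX2 had -0.40 (SE 0.321, adjusted p = 0.673). None of these values passed.

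**Figure D2:**
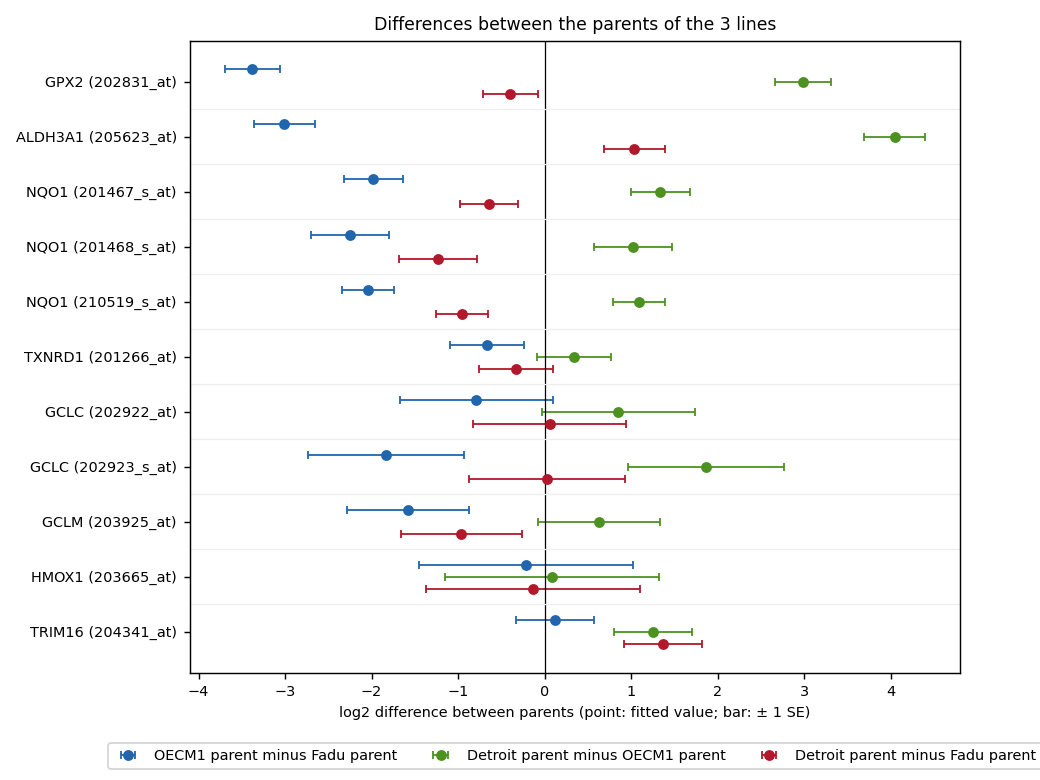
Fitted log2 difference between parents for each probe set, with bars of 1 SE; blue is OECM1 minus Fadu, green Detroit minus OECM1, red Detroit minus Fadu. The blue points of GPX2, ALDH3A1 and NQO1 lie at -1.98 or lower, and the green points of GPX2 and ALDH3A1 at 2.98 and 4.04.

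The comparison of each subline with its parent addresses what accompanies selection for invasion. The members were picked with results of these comparisons known, although which values decided the choice is not recorded, so the values here are a description. Counts past the threshold stand beside the share over all probe sets, and nothing is read from them. In Fadu, GPX2 was 8.07-fold lower in the subline (log2 difference -3.01, SE 0.321) and ALDH3A1 3.69-fold lower (-1.88, SE 0.352). NQO1 lay 0.31 to 0.68 below the parent on its 3 probe sets, TXNRD1 0.79 below (SE 0.426) and GCLC 1.39 below on 202923_s_at (SE 0.902), whereas GCLM lay 0.80 above (SE 0.705) and HMOX1 0.72 above (SE 1.23). TRIM16 had -0.39. The 2 subline arrays lay outside the range of the parent arrays for 8 of 11 probe sets, 6 lower and 2 higher, against 16.9% and 15.8% of all (32.7% in either direction). Of the 11, only GPX2 passed the threshold, where 0.0225% of all did (0.015% lower). It did not pass without either Fadu subline array, Fadu parent replicate 2 or either OECM1 subline array, with only the 4 arrays compared or with the replicate block, while the difference itself ran from -3.42 to -2.60. The median over the members was -0.62, against -0.01 over all tested. GPX2 and GCLM thus lay on opposite sides of the parent, with both subline arrays outside the parent arrays for each. The GCLM difference was about the size of its SE.

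In the groups labelled Detroit, GPX2 was 4.13-fold lower in the subline (log2 difference -2.05, SE 0.321) and ALDH3A1 3.92-fold lower (-1.97, SE 0.352), while NQO1 was higher by 0.87 to 1.43 on its 3 probe sets. GCLM was 4.15-fold higher (2.05, SE 0.705), TRIM16 lay 0.99 below (SE 0.451), and TXNRD1 and HMOX1 had 0.99 (SE 0.426) and 2.97 (SE 1.23). The GCLC probe sets had 0.05 and -0.11. The arrays did not overlap for 7 of 11 probe sets, 4 higher and 3 lower, against 20% and 18.8% of all (38.8% in either direction). GPX2 and ALDH3A1 passed the threshold, both lower, where 2.91% of all did (1.67% lower). GPX2 differed by only 0.02 between the 2 subline arrays. With only the 4 arrays compared, or with the replicate block, 0 of the 11 passed. Without Detroit invasion subline replicate 1, 6 did, and without replicate 2 or without Detroit parent replicate 1, 1 did. The GCLM difference ran from 0.92 to 3.19 and the HMOX1 difference from 0.18 to 5.75 over the alternatives, the ends being set by which of these 2 subline arrays was left out.

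In OECM1, GPX2 lay 0.66 above the parent in the subline (SE 0.321), TRIM16 0.86 (SE 0.451), TXNRD1 0.60 (SE 0.426) and NQO1 0.41 on 210519_s_at (SE 0.303), each with the subline arrays above both parent arrays. These were 4 of 11, all higher, against 13% of all probe sets (24.9% in either direction). The other NQO1 probe sets had 0.42 (201467_s_at) and -0.06 (201468_s_at), ALDH3A1 0.06, HMOX1 0.10, GCLM 0.43 and the GCLC probe sets -0.25 and 0.11, with overlapping arrays. No member was called, nor was any of the 13311 probe sets (0%) in the limma fit, where 425 had an unadjusted p under 0.05, none of them a member. GPX2 averaged 5.73 in the OECM1 subline, against 8.45 and 8.06 in the Fadu and Detroit parents. The F test of whether the 3 differences are equal called 0.593% of all probe sets and 1 of the 11, GPX2. For GPX2 this is a description, since it was picked with earlier results of these comparisons known.

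**Figure D3:**
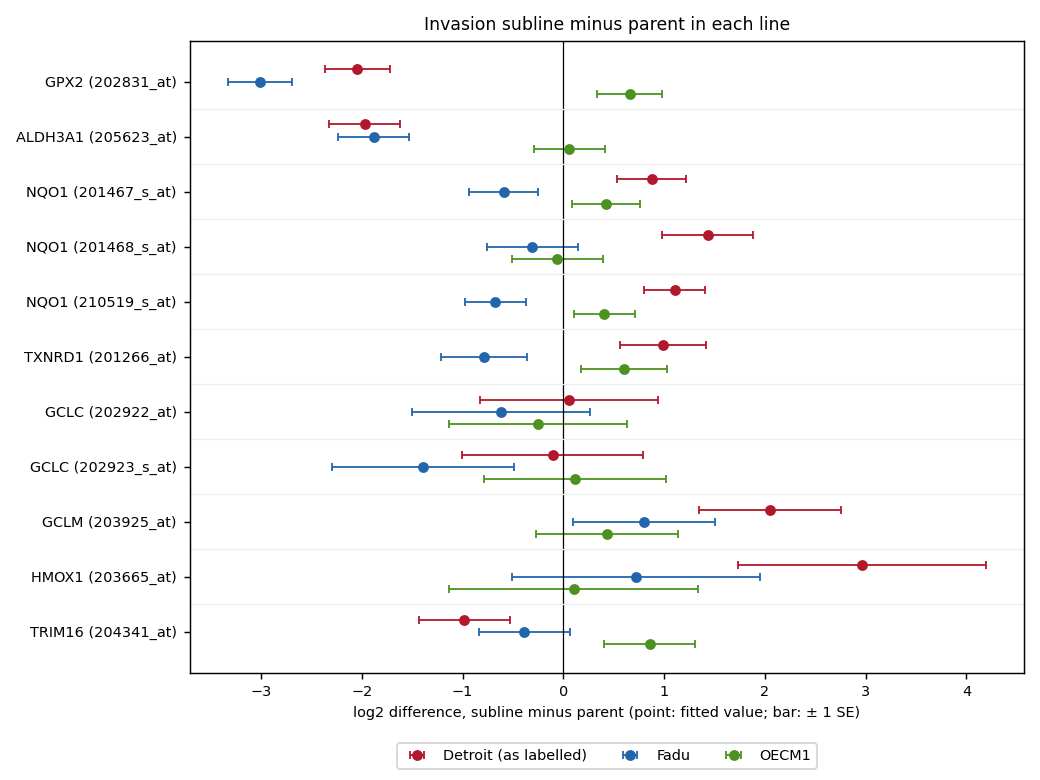
Fitted log2 difference between invasion subline and parent for each probe set, with bars of 1 SE; red is Detroit as labelled, blue Fadu and green OECM1. GPX2 lies at -2.05 and -3.01 in Detroit and Fadu and at 0.66 in OECM1, and the widest bars, 1.23, belong to HMOX1.

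Because the Detroit-labelled subline resembled the Fadu parent most, they were also set against it. GPX2 was 5.44-fold lower in them (log2 difference -2.44, SE 0.321) and ALDH3A1 1.91-fold lower (-0.93, SE 0.352), with arrays that lay apart for 3 of the 11 probe sets against 27.3% of all. NQO1 differed by 0.15 to 0.23 and HMOX1 by 2.83 (SE 1.23), the latter being 0.05 without replicate 2. No member and no other probe set was called by limma (0%), with 3 members and 485 probe sets at an unadjusted p under 0.05. These arrays are among those on which the members were picked, so the values are a description. Without replicate 1 of the Detroit-labelled subline 2 members were called, GPX2 and HMOX1, and with the ACTB ratio described next as a covariate 1 was, GPX2. In GPX2 these arrays, at 6.01 on average, lay nearer to the Fadu subline at 5.44 than to the Fadu parent at 8.45. In ALDH3A1, at 6.97, they lay between the Fadu parent at 7.91 and the Fadu subline at 6.03.

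The 2 arrays of the Detroit-labelled subline lay far apart in HMOX1, GCLC and GCLM and close together in GPX2. Replicate 2 exceeded replicate 1 by 5.57 in HMOX1, the third largest difference of 13311 probe sets in that pair, by 3.44 and 3.28 in GCLC, by 2.26 in GCLM, by 1.38 in TXNRD1 and by 1.13 in TRIM16. GPX2 and ALDH3A1 had -0.02 and -0.49, and NQO1 -0.35 to 0.95. Thus 6 of 11 probe sets were higher by over 1 in replicate 2 and 0 lower, against 10.7% and 8.8% of all tested. Of 79 tested genes of 10 related pathway lists, 22 were higher by over 1 and 3 lower; those named next were picked after their values were seen. The cystine transporter gene SLC7A11, which supplies cysteine for glutathione, had 4.61 (5.28 and 9.89), the small MAF gene MAFF 3.17, CHAC1, which degrades glutathione, 2.78, malic enzyme ME1 2.37 and NFE2L2 itself 2.04. AKR1C1 and AKR1C2, reductases whose probe sets can share signal, had 3.49 and 3.43. Other genes of these lists moved less, among them GSR (0.09), AKR1B10 (0.15), AKR1C3 (0.51) and OSGIN1 (-0.06). The 3 that were lower were TXNRD2 (-1.24), GSTO1 (-1.07) and HMOX2 (-1.04). As a sign of RNA quality, the 3 prime minus 5 prime signal of the ACTB controls (log2, higher where RNA is degraded) was 0.80 in replicate 2 and -0.28 in replicate 1. In the OECM1 parent it was 0.87 in replicate 1 and 0.04 in replicate 2, with HMOX1 at 4.64 and 5.08 and GCLM at 6.97 and 5.47. In the OECM1 subline it was 0.06 and 0.63, with HMOX1 at 4.83 and 5.09 and GCLM at 6.10 and 7.21. In both OECM1 groups GCLM was thus higher on the array with the higher ratio, and HMOX1 in only 1 of them. In the Fadu subline the ratio was -0.05 and 0.40, with HMOX1 at 5.63 and 5.96 and GCLM at 8.53 and 8.68. Here both genes were higher on the array with the higher ratio. In the Fadu parent it was 0.55 and -0.23, with HMOX1 at 4.94 and 5.21 and GCLM at 7.80 and 7.82. There both genes were lower on the array with the higher ratio, GCLM by only 0.03. In the Detroit parent it was -0.03 and -0.10, with HMOX1 at 5.23 and 4.66 and GCLM at 7.18 and 6.51. Both genes were again higher on the array with the higher ratio. A link between the ratio and these genes was not tested. With this ratio as a covariate, HMOX1 differed by 2.33 between the Detroit-labelled groups (SE 1.09), and GCLM by 1.57 (SE 0.464).

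**Figure D4:**
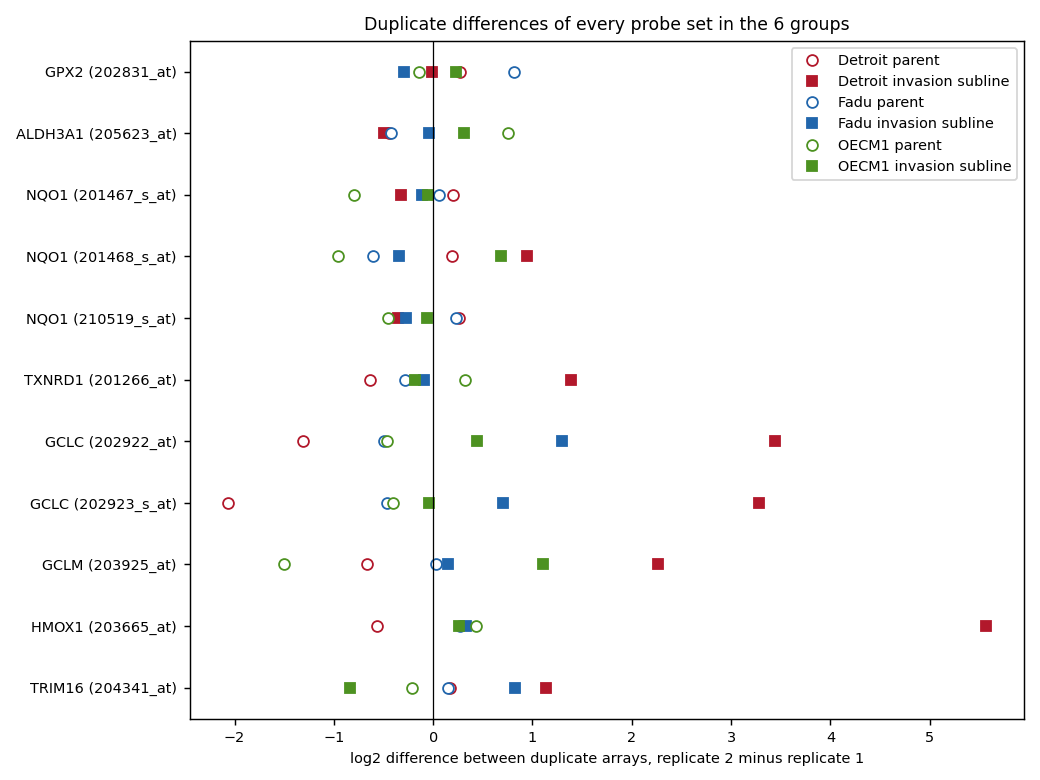
Log2 difference between duplicate arrays (replicate 2 minus replicate 1) for each probe set; open circles are parents and filled squares invasion sublines of Detroit (red), Fadu (blue) and OECM1 (green). The Detroit subline lies far right for HMOX1, GCLC and GCLM, at 5.57, 3.28 to 3.44 and 2.26, and at -0.02 for GPX2.

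The members did not vary as one block. Over the 12 arrays, which share lines and duplicates, GPX2 and ALDH3A1 correlated at r = 0.857, and the NQO1 probe sets with each other at 0.904 to 0.987. GPX2 correlated with GCLM at 0.03 and with HMOX1 at -0.15. GCLM and NQO1 correlated at 0.702 to 0.874. The correlation of TXNRD1 with HMOX1, 0.750, was -0.26 without Detroit invasion subline replicate 2, and that of GCLM with 202922_at of GCLC was 0.584 with and 0.227 without it. Others rose without that array. With 202923_s_at of GCLC, GPX2 correlated at 0.546 with the array and 0.785 without it, and ALDH3A1 at 0.637 and 0.796. These are descriptions of 12 arrays in 6 groups.

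Among genes outside the list, the 6 most like GPX2 by Pearson correlation over the 12 arrays were MMP13 (r = 0.904), a collagenase, MAPK13 (0.863), a p38 kinase, GIGYF2 (0.862), the immunoproteasome gene PSMB8 (0.847), RAB1B (0.845), a GTPase of the secretory pathway, and BST2 (0.838), the antiviral protein tetherin. Among parents MMP13 averaged 7.27 for Detroit and 6.34 for Fadu, and it lay at 3.96 to 4.48 in the remaining groups. Its highest groups were those of GPX2, and its rank correlation was 0.573. The order depends on the measure: by rank correlation 1 of these 6, GIGYF2, was among the first 6, and by correlation over the 6 group means 0 were. The gene most like ALDH3A1 was the glutathione transferase gene GSTM2 (r = 0.918) and that most like NQO1 on 210519_s_at was GSTP1 (r = 0.951), another glutathione transferase. GSTP1 was lower in the OECM1 than in the Fadu parent (log2 difference -1.22, SE 0.273, adjusted p = 0.0429). For GCLC it was SLC2A10 (0.941), for GCLM VAPA (0.930), for TXNRD1 VGLL4 (0.894), for TRIM16 PARD3 (0.914) and for HMOX1 SH3GL3 (0.956, but 0.469 by rank).

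**Figure D5:**
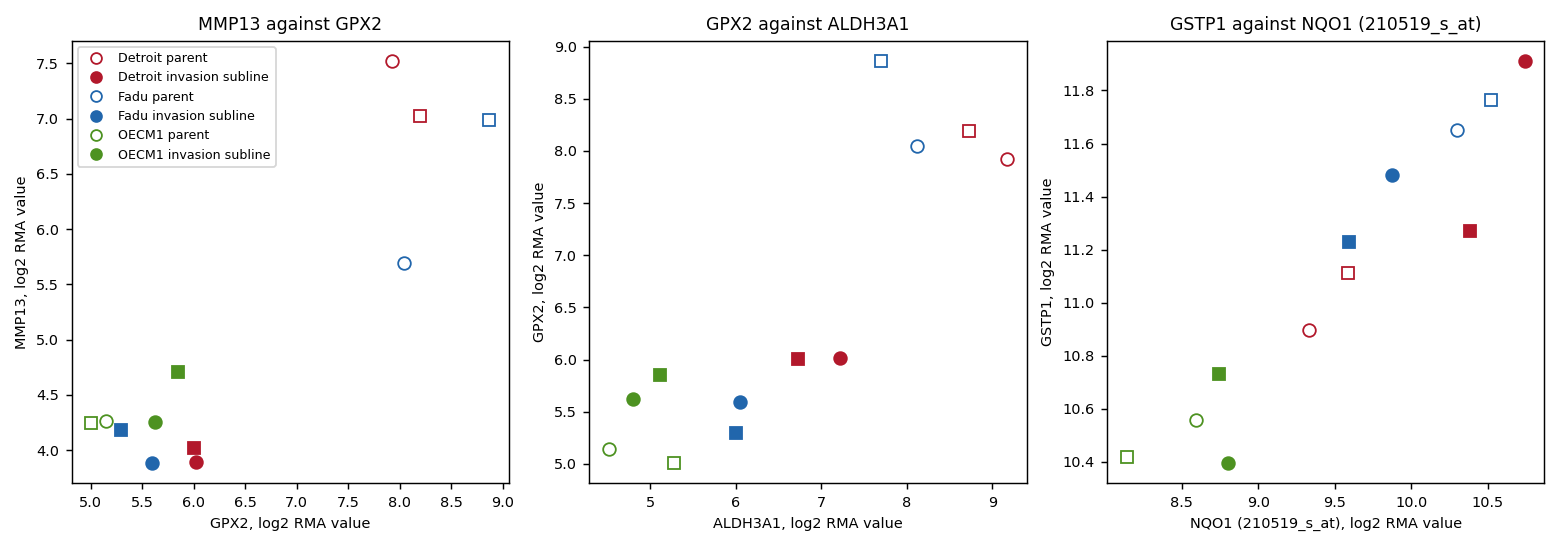
Log2 RMA values on the 12 arrays for MMP13 against GPX2, GPX2 against ALDH3A1, and GSTP1 against NQO1 (210519_s_at); open symbols are parents, filled symbols invasion sublines, circles replicate 1 and squares replicate 2. In the first panel the 4 arrays of the Detroit and Fadu parents stand apart from the other 8, and in the third the OECM1 arrays lie lowest.

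The rest of the pathway was followed through 10 lists of 99 genes, of which 86 had a probe set of their own and 79 passed the dim limit. In the Detroit parent against the OECM1 parent, 8 of the 79 were higher and 1 lower, against 1.33% and 1.64% of all probe sets. Among 12 tested members of the list of other NRF2 targets, 5 were higher, namely AKR1C2 (log2 difference 4.77), AKR1C1 (4.35), AKR1C3 (3.996), the epoxide hydrolase EPHX1 (2.65) and AKR1B10 (2.45), the last named after its value was seen. The list had a median of 0.85 against 0.05 over all. Glutathione reductase GSR (1.93), GSTM2 (1.43) and PGD of the pentose phosphate pathway (1.71) were higher and the peroxiredoxin PRDX4 (-2.68) was lower. The count of 9 was 2 without Detroit parent replicate 1 and 3 without OECM1 parent replicate 1.

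Between the Detroit and Fadu parents, 6 of the 79 genes were higher and 1 lower, against 1.19% and 1.03% of all probe sets. AKR1C3 had a log2 difference of 4.03, ALDH7A1 2.70, TXNRD2, the mitochondrial thioredoxin reductase, 2.13, catalase CAT 1.93, AKR1B10 1.89 and GSR 1.65, while ALDH5A1 had -1.36. The count of 7 was 2 without Detroit parent replicate 1 or Fadu parent replicate 1, 4 without Fadu parent replicate 2 or either Fadu subline array, 11 without either or both arrays of the Detroit-labelled subline or with the ACTB covariate, and 12 with array weights. For OECM1 against Fadu, ALDH7A1 (2.70) was higher and ALDH5A1 (-1.65) and GSTP1 lower, in all 3 of 79, against 2.52% of all probe sets. Nothing is read from this count, which is near that share. That count was 1 without Fadu parent replicate 1 or OECM1 parent replicate 1, 6 without either or both arrays of the Detroit-labelled subline, 5 with the ACTB covariate, and 2 under several other settings.

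Between subline and parent in the groups labelled Detroit, 7 of the 79 genes were lower and 0 higher. Over all probe sets 1.67% were lower and 1.24% higher. The 7 were AKR1C3 (log2 difference -4.03), GLRX (-2.71), AKR1B10 (-2.39), ALDH7A1 (-2.33), CAT (-1.73), GLRX2 (-1.66) and GSR (-1.63). Set against the Fadu parent, 0 of the 79 were called in the Detroit-labelled subline, where 0% of all probe sets were. AKR1C3, AKR1B10, ALDH7A1, CAT and GSR were also called higher in the Detroit than in the Fadu parent. Whether the lower values go with selection or with the line was not tested. The count of 7 rose to 13 when replicate 1 of the Detroit-labelled subline was left out, and was 3 without Detroit parent replicate 1 or with the replicate block, 4 with array weights and 1 with only the 4 arrays compared. In Fadu and OECM1, 0 of 79 were called by limma. The largest differences were those of AKR1C2 (-1.98, SE 0.863) and AKR1C1 (-1.96, SE 0.820) in Fadu, and AKR1C1 (1.46, SE 0.820) and MAFF (1.22, SE 0.809) in OECM1. List medians ran from -0.51 to 0.13 in Fadu, where all tested probe sets had -0.01, and from -0.00 to 0.40 in OECM1, where these had 0.01.

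Among the other glutathione peroxidases, GPX1 had a log2 difference of -0.30 (SE 0.485) in Fadu, GPX4 -0.40 (SE 0.440) and GPX3 0.88 (SE 0.446), against -3.01 for GPX2. GPX1 had the sign of GPX2 in the other lines too, with -1.39 in the groups labelled Detroit and 0.50 in OECM1, the arrays of subline and parent lying apart in both, whereas GPX3 had 1.49 and 0.14. No difference between these genes and GPX2 was tested. NFE2L2 averaged 7.31 ± 0.171 (SD, n = 2) in the Fadu subline and 7.66 ± 0.0244 in its parent, and KEAP1 6.98 ± 0.119 and 7.26 ± 0.155. KEAP1 was also below the parent in the sublines of the other lines, with arrays that lay apart. Its log2 difference was -0.88 in the groups labelled Detroit and -0.22 in OECM1 (SE 0.293 for each). In none of the subline or parent comparisons did NFE2L2, KEAP1 or these peroxidases pass the threshold. Over the parents, NFE2L2 averaged 7.98 in Detroit, 7.66 in Fadu and 7.35 in OECM1, and KEAP1 7.97, 7.26 and 6.88.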

How the data were processed

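Affymetrix arrays carried biotin-labelled total RNA prepared with Trizol, per the labels' protocols. The deposited values are log2 expression values for 22283 probe sets on 12 arrays, made with RMA, and Partek 7 is also named, per the submitters' processing notes; the sources used here name no genome build. Because RMA shrinks differences near background, folds of dim genes are understated, and precision is limited by 2 arrays per group. Probe sets were named from the platform annotation (19065 with 1 symbol, 1043 with several, 2107 with none, 68 controls).

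Probe sets with 1 symbol and at least 2 arrays above the 40th percentile of all values (13311) were fitted with a mean per group in limma 3.58.1 (R 4.3.3), with empirical Bayes moderation, an intensity trend and Benjamini-Hochberg adjustment. The 6 groups shared 1 spread. Pathway genes were represented by their probe set of highest mean, and the text names all members, up to 4 called genes per list and comparison by size of change, and the genes most correlated with members. Members and lists were chosen with earlier results of these data known. The fit was tested on simulated data. Replicate numbers were not used for pairing: same-numbered deviations of subline and parent correlated at -0.17, -0.41 and -0.40 in Detroit, Fadu and OECM1. Proteins were not analysed here.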

Additional observations from a re-analysis of the deposited data

Results flagged for a closer look

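GPX2 was marked because its difference between subline and parent was not the same in the 3 lines. It was -2.05 in the groups labelled Detroit, -3.01 in Fadu and 0.66 in OECM1 on the log2 scale, with the arrays of subline and parent apart in each line. The F test of the 3 differences in the limma fit gave an adjusted p = 0.00846 over 13311 probe sets, of which 0.593% passed. GPX2 was chosen with these comparisons known, so this is not independent evidence. The call ended with the replicate block (adjusted p = 0.107) and without OECM1 invasion subline replicate 2 (adjusted p = 0.0524).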

How the results depend on the processing

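Counts of the 11 probe sets called were recomputed under 11 alternatives and with each of the 12 arrays left out. With only the 4 arrays compared, the count of 2 for Detroit subline against parent was 0 and the count of 1 for Fadu was 0. With the replicate block these were also 0 and 0, and the count for the difference between lines was 0 in place of 1. With array weights the Fadu count was 2. With 1 probe set per gene the count of 5 for OECM1 against Fadu parents was 3, as only 1 NQO1 probe set was tested. With the ACTB covariate the count for the Detroit subline against the Fadu parent was 1 in place of 0. Under it GCLM was also called lower in OECM1 against Fadu parents (-2.02, SE 0.461). The count for Detroit against OECM1 parents was 2 to 3 over the alternatives. Leaving out single arrays gave 1 to 6 for Detroit, 0 to 1 for Fadu, 2 to 5 for OECM1 against Fadu parents, 0 to 2 for the Detroit subline against the Fadu parent and 0 to 3 for the difference between lines. The Fadu count was 0 without either Fadu subline array, Fadu parent replicate 2 or either OECM1 subline array. The crossed pairing, chosen after the data were seen, gave 3, 1 and 0 calls in Detroit, Fadu and OECM1.

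Leaving aside subline against parent, 24 values of 14 differences changed sign, none of them called. Between subline and parent, values not called also changed sign. In Detroit these were 202922_at (-1.67 to 1.77) and 202923_s_at (-1.75 to 1.53) of GCLC. In Fadu they were 202922_at (-1.27 to 0.03) and TRIM16 (-0.80 to 0.03). In OECM1 they were ALDH3A1 (-0.32 to 0.44), 201468_s_at of NQO1 (-0.54 to 0.42) and 202923_s_at of GCLC (-0.09 to 0.31). GCLM (-0.32 to 1.18) and HMOX1 (-0.12 to 0.32) did so too. In Detroit against Fadu parents, 202923_s_at of GCLC was -0.0205 with each array centred on its median and HMOX1 0.305 with the ACTB covariate. In the Detroit-labelled subline against the Fadu parent, 202922_at of GCLC was -0.0709 with that covariate. With single arrays left out, Detroit against Fadu parents ran from -0.81 to 0.0133 for GPX2, -0.60 to 0.71 and -1.005 to 1.07 for the GCLC probe sets and -0.42 to 0.15 for HMOX1. Detroit against OECM1 parents ran from -0.13 to 1.37 for GCLM and -0.20 to 0.37 for HMOX1, and OECM1 against Fadu parents from -0.43 to 0.0019 for HMOX1. The Detroit-labelled subline against the Fadu parent ran from -0.27 to 0.68 and -0.0242 to 0.33 for NQO1 (201468_s_at, 210519_s_at), -0.0319 to 1.35 for TXNRD1, -1.61 to 1.83 and -1.72 to 1.56 for GCLC, -0.039 to 2.22 for GCLM and -0.18 to 0.95 for TRIM16. Values near the dim limit bound what can be said of 202922_at of GCLC and, in OECM1, of ALDH3A1.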
